A study of Mus musculus with 10 samples.

Results

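Very wide accessible regions were examined in ATAC-seq peak lists of cultured neural stem cells, taken from the adult mouse subependymal zone. ATAC-seq inserts adapters into open DNA with a transposase, and a peak is a stretch where more inserts were found than in the local background. The peaks of all 10 lists were merged wherever they overlapped, which gave 137454 regions. A region was kept when it lay on an autosome and held, in 5 or more lists, a single peak of 2000 bp or more. This left 100 regions on 18 chromosomes, against a median length of 639 bp for the regions with a peak in 5 or more lists. Peak width chose the regions, so widths are described here and not tested. In 25 of the 100 regions every list held such a wide peak, and in 22 regions exactly 5 lists did. All 100 regions had a peak of some width in each of the 10 lists.

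The cultures came from mice of 10 weeks and had the genotypes wild type (WT) and Cdkn1b null (p27KO), which lacks the cyclin-dependent kinase inhibitor p27 in every cell and, per the study's methods, was kept on a C57BL/6J background. Proliferating cells (PRO) were neurospheres in medium with EGF at 20 ng/ml and FGF at 10 ng/ml, while cells that had just begun to differentiate (DIFF) had spent 2 days on Matrigel with FGF and 24 h without mitogens in 2% serum. WT gave 3 PRO and 3 DIFF libraries and p27KO gave 2 of each, all from 50000 cells, and nothing ties a library to an animal, so p-values measure only the spread between these libraries. PRO and DIFF also differ in substrate and serum, and these cannot be told apart from mitogen withdrawal. Free text attached to the p27KO libraries calls them WT, against title and genotype. A peak within 250 bp of the Cdkn1b start site was present in each of the 6 WT lists and absent from each of the 4 p27KO lists, as the titles have it. The lists held 57534 to 91801 peaks, and the reads behind them are unknown. WT DIFF replicate 3 stood apart, with 88738 peaks against 61783 and 57534 in the other two WT DIFF lists.

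Most open regions of a mammalian genome are short, a nucleosome-free stretch of an enhancer or promoter. CpG islands, stretches of GC-rich DNA where CpG dinucleotides have not been lost, cover the promoters of many broadly used and developmental genes and can stay open over a longer span. Tandem repeats are a different kind of long feature, in which a unit is copied head to tail. Satellite DNA near centromeres is the best known case, and reads from such copies are hard to assign to one place.

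The 100 regions were divided into 2 kinds by how often their sequence recurs in the genome. In 68 regions at most 35.3% of the 31-base words (31-mers) occurred more than once in the genome, and these are called single copy here. In the other 32 at least 59.6% did, and these are called repeated. The division at 50% was chosen after the values were seen, and no region lay between these bounds. Of the 68 single-copy regions, 62 (91.2%) held the start site of a protein-coding gene, while 2 of the 32 repeated regions did. Over all 100 the share was 64% (95% Wilson interval 54.2 to 72.7%, counting error only), against 20.0% of the 70512 regions in 5 or more lists that lie on annotated chromosomes.

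**Figure D1:**
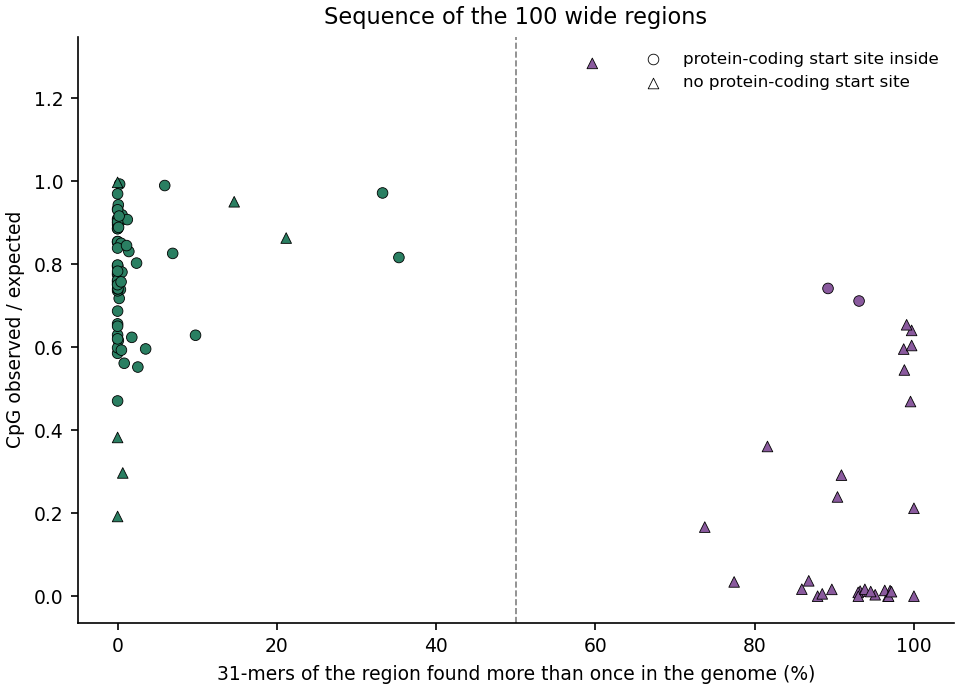
Each point is 1 of the 100 wide regions, placed by the share of its 31-base words that occur more than once in the genome (x axis, %) and by its CpG count divided by the count expected from its base composition (y axis). Green points (single copy, 68 regions) lie left of the dashed line at 50% and purple points (repeated, 32 regions) to its right. Circles hold a protein-coding start site and triangles do not, and 18 of the purple points have a CpG ratio of 0.05 or less.

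Sequences of both kinds are shown here, since they are what sets the 2 groups apart, with every CG dinucleotide in capitals. The first set gives the 250 bases before the start site of 5 single-copy genes, read on the gene's own strand from the RefSeq promoter table for GRCm38.p6. They are from Dnmt3a, a de novo DNA methyltransferase, at chr12:3806730-3806979 (plus strand), Sp3, a zinc finger factor that binds GC-rich promoters, at chr2:72980447-72980696 (minus strand), Jun, an immediate early component of AP-1, at chr4:95052223-95052472 (minus strand), Cxcr4, the receptor of the chemokine Cxcl12, at chr1:128592300-128592549 (minus strand), and Nrp1, a co-receptor for semaphorins and VEGF, at chr8:128358823-128359072 (plus strand).
Dnmt3a: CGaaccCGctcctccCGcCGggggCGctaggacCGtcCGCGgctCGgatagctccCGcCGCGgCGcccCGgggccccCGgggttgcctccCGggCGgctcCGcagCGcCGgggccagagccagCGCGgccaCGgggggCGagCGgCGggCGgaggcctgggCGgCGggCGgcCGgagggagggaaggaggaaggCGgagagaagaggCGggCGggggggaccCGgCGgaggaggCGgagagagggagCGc
Sp3: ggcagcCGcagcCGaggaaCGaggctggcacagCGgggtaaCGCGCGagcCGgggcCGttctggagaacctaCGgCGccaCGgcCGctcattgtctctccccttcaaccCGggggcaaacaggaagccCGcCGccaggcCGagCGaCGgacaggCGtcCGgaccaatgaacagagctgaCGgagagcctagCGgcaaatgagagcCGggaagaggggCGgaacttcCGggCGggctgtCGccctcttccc
Jun: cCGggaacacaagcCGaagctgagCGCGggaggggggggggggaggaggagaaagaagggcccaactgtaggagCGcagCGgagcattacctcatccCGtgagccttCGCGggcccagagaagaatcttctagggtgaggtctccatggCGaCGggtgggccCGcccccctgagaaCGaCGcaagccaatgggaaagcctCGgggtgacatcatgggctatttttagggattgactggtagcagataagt
Cxcr4: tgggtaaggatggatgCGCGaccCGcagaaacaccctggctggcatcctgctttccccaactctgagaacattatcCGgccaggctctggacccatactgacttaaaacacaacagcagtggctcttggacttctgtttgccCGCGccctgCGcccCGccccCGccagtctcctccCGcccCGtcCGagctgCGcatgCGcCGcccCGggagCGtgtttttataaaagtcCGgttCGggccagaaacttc
Nrp1: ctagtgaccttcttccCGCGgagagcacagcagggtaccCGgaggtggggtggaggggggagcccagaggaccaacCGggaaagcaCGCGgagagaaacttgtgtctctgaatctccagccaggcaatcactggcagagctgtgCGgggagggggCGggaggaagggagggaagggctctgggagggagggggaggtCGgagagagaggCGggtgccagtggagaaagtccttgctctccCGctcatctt
These windows held 38, 28, 15, 19 and 11 CG dinucleotides, in this order. The Nrp1 and Cxcr4 regions, whose widest peak narrowed most at DIFF, are described further on.

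The same count was made over the 300 bases (250 before to 50 after the start) of every promoter in the table. CG occurred at least 20 times in 26.5% of 32851 promoter windows, with a median of 7. Of the 69 windows that lay inside the single-copy wide regions, 56 (81.2%) reached 20, and the median was 30. The 32851 windows were taken whether or not a peak lay there, so they are no background of open promoters. A comparison with other regions at coding start sites is given below. The dinucleotide reads the same on both strands, and the count is a description of these windows.

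The second set gives the unit of 3 repeated regions and a stretch of a simple repeat, each taken from the middle of its region on the plus strand of GRCm38. The 234-base unit at chr9:3024846-3025079 lies at the start of the assembled sequence of chromosome 9, the 208-base unit at chr10:27822135-27822342 in intergenic DNA of chromosome 10, the 54-base unit at chr2:52697736-52697789 in an intron of Stam2, and the stretch at chr9:121930727-121930786 in intergenic DNA.
Unit of 234 bases: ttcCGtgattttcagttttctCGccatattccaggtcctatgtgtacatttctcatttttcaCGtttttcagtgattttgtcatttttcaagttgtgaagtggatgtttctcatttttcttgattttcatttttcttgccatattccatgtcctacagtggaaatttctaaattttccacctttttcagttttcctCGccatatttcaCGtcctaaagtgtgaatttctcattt
Unit of 208 bases: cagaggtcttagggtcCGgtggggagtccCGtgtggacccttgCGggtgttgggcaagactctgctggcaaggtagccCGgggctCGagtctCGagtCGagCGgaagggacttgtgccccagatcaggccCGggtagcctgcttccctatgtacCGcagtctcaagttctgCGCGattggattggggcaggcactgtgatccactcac
Unit of 54 bases: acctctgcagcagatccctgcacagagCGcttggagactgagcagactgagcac
Stretch of a 4-base repeat: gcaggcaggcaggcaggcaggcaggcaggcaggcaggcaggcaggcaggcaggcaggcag
When each of these regions was shifted along itself by its own period, 73.5%, 98.6%, 97% and 100% of its bases matched.

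The 62 single-copy regions with a coding start site held 69 coding genes. In 7 of them 2 genes started on opposite strands, and in 21 a non-coding transcript also started inside. Their median CpG ratio was 0.80 and their median GC content 63.9%, against 0.71 and 60.2% for the other 14066 regions with a coding start site and 0.24 and 50.3% for all regions in 5 or more lists. In 61 of the 62 the CpG ratio was 0.5 or more. Both medians lay above those of the other start-site regions, and far above those of all regions. Their median length of 2371.5 bp compared with 1097 bp for the other start-site regions. The summit of the widest peak lay a median of 207.5 bp from the nearest coding start site, and within 500 bp in 46 of the 62 regions.

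Grouped by what their products are known to do, 40 of the 69 genes were placed in 5 groups, which were written after the genes were known. DNA-binding transcription factors made up 13 of them. Besides Sp3 and Jun these were Etv1, an ETS factor downstream of FGF and ERK signalling, Rreb1, Zbtb14, Zbtb10, Zbtb2, Elf2, Mef2c, Maf, Sox12, Tshz3 and the imprinted gene Peg3. Their median widths over the 10 lists ran from 1882.5 to 2425.5 bp. Chromatin regulators and coregulators counted 9, from the methyltransferase Dnmt3a, the corepressor Rcor3 and the coactivator Ncoa2 to the demethylase Kdm7a, Epc2, Sinhcaf, Zmynd11, Kmt2e and the topoisomerase Top2b. Guidance, adhesion and junction genes counted 8, with Nrp1, Sema4c, Plxnc1, Cxcr4, the cadherin Fat3, the glypican Gpc6, the gap junction protein Gja1 and Afdn, and RNA processing genes 6, among them the splicing factor U2af2 and the export factor Alyref2. The signalling group held 4, with Akt1s1, the 14-3-3 protein Ywhaz, Dyrk2 and Rgs7bp.

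Gene models with Gm names aside, the widest promoter of a coding gene was at Ppp2r3d (chr9:124422821-124425924), a regulatory subunit of protein phosphatase 2A. Its widest peak measured 3000, 3078 and 3039 bp in WT PRO, 2999, 3011 and 3007 bp in WT DIFF, 3010 and 3042 bp in p27KO PRO, and 2989 and 3025 bp in p27KO DIFF. The 10 values lay within a few percent of each other, and the groups overlapped. At Fat3 (chr9:16499637-16502556) 9 lists held one peak of 2802 to 2911 bp, and p27KO DIFF replicate 1 held 2 peaks, the wider of 2237 bp. The groups overlapped there.

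Of all 14130 regions in 5 or more lists with a coding start site 64 were wide. The gene lists are short beside that share, so a count of 0 or 1 is no result about their genes. Of 38 neural progenitor transcription factors with a region at their start site, 0 were among the 100 autosomal regions. The widest of that list was Sox3, on the X chromosome and thus outside the rule, with a median width of 2119 bp. Among 36 immediate early genes 1 was wide (Jun), among 29 mitogen signalling and feedback genes 1 (Etv1), among 20 housekeeping genes 1 (Ywhaz) and among 12 astrocyte genes 1 (Gja1). None of 40 cell cycle genes, 8 oligodendrocyte lineage genes and 16 neuroblast and neuron genes was wide, and the nearest cell cycle gene was Cdkn2c, a CDK4 and CDK6 inhibitor, at a median of 1971 bp with a wide peak in 4 lists. Markers of microglia, endothelium and ependyma had 3, 3 and 6 genes with a region, and none of them was wide in any list. For comparison, the median width at housekeeping genes was 885 bp.

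The other 6 single-copy regions lay elsewhere. One on chromosome 14 (chr14:115040286-115042694) ended 185 bp from the start of Mir17hg, the host transcript of the miR-17-92 cluster, and held 1 peak in every list, of 2241 to 2363 bp in the PRO libraries and 2006 to 2091 bp in the DIFF libraries. All 5 PRO values there exceeded all 5 DIFF values. One on chromosome 17 (chr17:39843050-39847348) spanned the starts of Gm26917 and Gm42418, a pair of non-coding genes, and also overlapped CT010467.1 and AY036118. It had a median width of 4226 bp at a median percentile of only 10.3 by fold enrichment. It is single copy by the division used, which counts copies on the assembled chromosomes only, so copies missing from the assembly would not be seen. One covered an exon of the trichohyalin gene Tchh, one an intron of Ccdc88c, one the start of the non-coding 4930412L05Rik, and one intergenic DNA 11181 bp from Arhgef4.

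Among the 32 repeated regions, 31 were tandem repeats, in that 67.3 to 100% of the bases matched after a shift by 1 period. The periods ran from 3 to 672 bases. A period of 156 bases was shared by 5 regions, 208 bases by 4 and 234 bases by 2. For contrast, the highest such match in a single-copy region was 58.2%, at Gm21738, and the next was 44.4%. Repeat masking of the assembly covered 90% or more of 24 of the 32, and of 1.54% of the 70512 annotated regions in 5 or more lists. By annotation 18 were intergenic and 10 intronic.

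Several repeated regions resembled each other. A cluster of 6 lay on chromosome 8 between 20 and 21 Mb, and pairs of these shared 41.4 to 68.9% of the distinct 31-mers of the smaller set. The 4 regions with a 208-base period lay on chromosomes 2, 10 and 15 and shared 48.6 to 67.7% in pairs. The 2 regions at the start of chromosome 9 shared 76.0%, and Gm21738 on chromosome 14 (chr14:19415722-19419465), single copy by the division used, shared 13.4 and 13.3% with them. The exception to the tandem pattern was chr1:24611602-24616128, of whose 31-mers 98.8% also occur in the mitochondrial genome. Regions that share sequence are not independent of each other, and which copy a read came from cannot be told from these lists.

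These repeats also gave the widest peaks. At chr9:3011434-3038257, a stretch of 26824 bp over several Gm gene models, the widest peak was 4230, 5737 and 7064 bp in WT PRO, 26785, 7037 and 4226 bp in WT DIFF, 7047 and 26789 bp in p27KO PRO and 7032 and 7205 bp in p27KO DIFF. In 2 libraries of different groups a single peak covered nearly the whole stretch, where the other lists cut it into 9 to 15 peaks. The neighbouring chr9:3000014-3004835 held 1 peak of 4748 to 4810 bp in every list. At chr1:24611602-24616128 the width was 2967 to 4527 bp. By the median over lists the 12 widest regions comprised 10 repeated ones, the region at Gm42418 and Gm21738. The -log10 p-value of Gm21738, of both chromosome 9 regions and of the mitochondrial-like region stood near the top of every list, the lowest percentile among them being 99.98 of the regions with a peak in 5 or more lists.

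Close to the width limit the choice of regions turned on a few base pairs. The 3 regions just inside had a fifth-widest peak of 2001 bp (an intron at chr12:4219441-4221635), 2001 bp (Kmt2e) and 2002 bp (the shared promoter of Hnrnpdl and Enoph1). The 3 just outside had 1999 bp (Clasp1), 1992 bp (Fbxl17) and 1990 bp (Ppp1r14c). Another 300 autosomal regions held a wide peak in 1 to 4 lists, and 51 of these were mostly repeated 31-mers.

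Widths were then compared over the 4 groups as a description. The median widest peak of the 68 single-copy regions was 2172, 2241.5 and 2101.5 bp in the WT PRO libraries and 1819.5, 2002.5 and 2200 bp in the WT DIFF libraries. It was 2107 and 2128 bp in p27KO PRO and 2031.5 and 2055.5 bp in p27KO DIFF. The WT groups overlapped through WT DIFF replicate 3, the library with the longest WT list, and the p27KO groups did not overlap.

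Group means of these medians were 2172 ± 70.0 bp (SD, n = 3) in WT PRO, 2007 ± 190 bp (n = 3) in WT DIFF, 2117.5 ± 14.8 bp (n = 2) in p27KO PRO and 2043.5 ± 17.0 bp (n = 2) in p27KO DIFF. Without WT DIFF replicate 3 the WT DIFF mean was 1911 ± 129 bp (n = 2). List length moved with these values only in part. Both shorter WT DIFF lists had the narrower medians. The shortest list, WT DIFF replicate 2, had 2002.5 bp against 1819.5 bp in replicate 1, and the longest, p27KO PRO replicate 1, had 2107 bp. Cutting every list to its top 57534 peaks left the median over all 100 wide regions the same in each library. That cut does not alter the peaks kept, and the part of list length in the widths was not tested.

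The number of single-copy regions with a wide peak had the same order of group means. It was 57, 63 and 54 of 68 in WT PRO, 29, 35 and 60 in WT DIFF, 50 and 49 in p27KO PRO and 38 and 50 in p27KO DIFF, with PRO and DIFF overlapping in both genotypes. A break of the region into more than 1 peak was seen in 10, 5 and 15 regions of the WT PRO lists and in 33, 23 and 5 of the WT DIFF lists. In the p27KO lists it was seen in 16 and 20 regions at PRO and in 20 and 15 at DIFF, so the p27KO groups overlapped in this count.

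The repeated regions behaved otherwise. Their median width was 2307, 2375 and 2573 bp in WT PRO and 2797, 2519.5 and 2584.5 bp in WT DIFF, and 2844.5 and 2988.5 bp in p27KO PRO against 2365 and 2472 bp in p27KO DIFF. The WT groups overlapped, and the p27KO PRO libraries lay above both p27KO DIFF libraries. The group means were 2418 ± 138, 2634 ± 145, 2916.5 ± 102 and 2418.5 ± 75.7 bp (SD, n = 3, 3, 2 and 2), so that the direction of the DIFF to PRO difference was opposite in the 2 genotypes. Whether this difference was more than library spread was not tested.

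**Figure D2:**
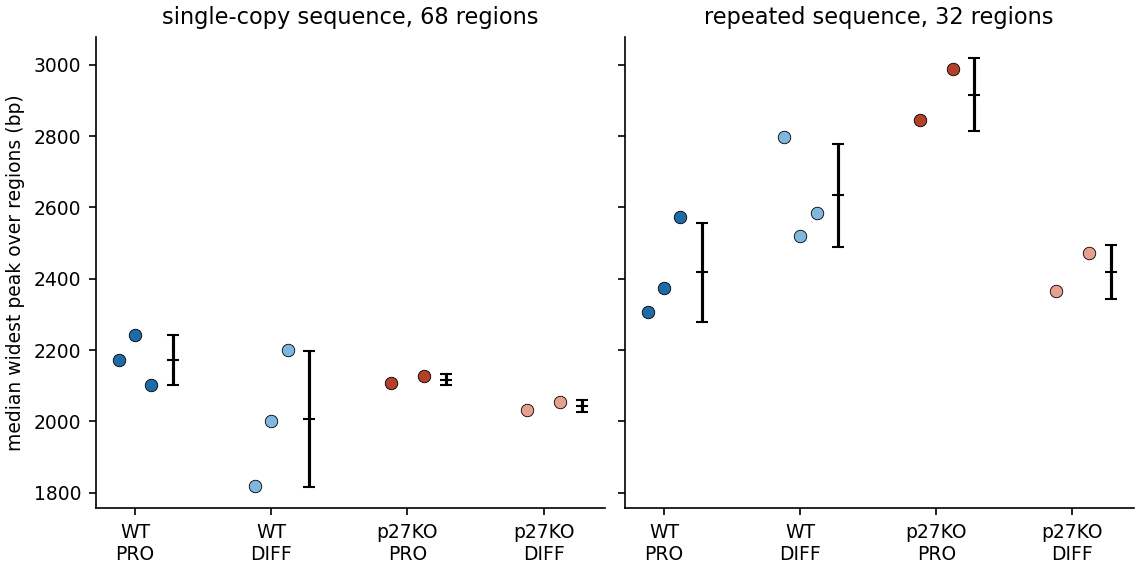
Median width of the widest peak (y axis, bp, starting above 0) in each library, by group (x axis), for the 68 single-copy regions (left) and the 32 repeated regions (right). Blue points are WT and red points p27KO libraries, with PRO dark and DIFF light, and the black bars give the group mean ± SD (n = 3 in WT, n = 2 in p27KO). Single-copy medians lie between 1819.5 and 2241.5 bp, with the lowest in WT DIFF replicate 1, and repeated medians between 2307 and 2988.5 bp.

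Region by region, 68 of the 100 were narrower at DIFF, by the ratio of DIFF to PRO width of the widest peak. A region cut into several peaks thus counts by its widest piece. For each condition the WT and p27KO group means were averaged with equal weight, so that the 3 WT libraries together counted as much as the 2 p27KO libraries. The median ratio was 0.962, with 49 of 68 single-copy regions (median 0.952) and 19 of 32 repeated ones (median 0.987) below 1. Of all 37862 regions with a peak in every list 72.7% were narrower (median 0.908), and of the other 12146 autosomal regions with a coding start site 78.2% were (median 0.928). The share among the wide regions was thus near or below that background. Every PRO width exceeded every DIFF width in 6 wide regions, all of them single copy, or 6 of 100 against 8% of the 37862 regions. The reverse held in 0 wide regions, against 1.20% of the 37862.

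The promoter of Nrp1 (chr8:128356887-128360193) had the lowest ratio, 0.44. Its widest peak measured 3079, 2999 and 2841 bp in WT PRO and 636, 567 and 1493 bp in WT DIFF, 3171 and 2639 bp in p27KO PRO and 1217 and 2177 bp in p27KO DIFF. Every PRO list held 1 unbroken peak and every DIFF list 2 or 3, and the PRO and DIFF widths did not overlap in either genotype. This holds for the widest peak only. Summed over all peaks of the region, the DIFF widths were 1388, 1247 and 2674 bp in WT and 1967 and 2816 bp in p27KO. By that sum the WT groups stayed apart and the p27KO groups overlapped.

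Cxcr4 (chr1:128590795-128593500) came next at 0.49. Its widest peak was 2690, 2417 and 2091 bp in WT PRO, 843, 1135 and 1614 bp in WT DIFF, 2684 and 2175 bp in p27KO PRO, and 1366 and 943 bp in p27KO DIFF. All 5 PRO values exceeded all 5 DIFF values here too. The lowest ratio among repeated regions was 0.55, at an intronic repeat in Pdzk1 (chr3:96840871-96845171). At Rcor3 (chr1:192136337-192138802), a corepressor of the REST complex, the ratio was 0.56, with 2396, 2431 and 2329 bp in WT PRO, 1042, 925 and 2311 bp in WT DIFF, 2443 and 2397 bp in p27KO PRO and 1275 and 1276 bp in p27KO DIFF. There 4 of the 5 DIFF lists broke the region into 2 peaks, and WT DIFF replicate 3 kept it whole, so that its value fell just under the PRO range.

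**Figure D3:**
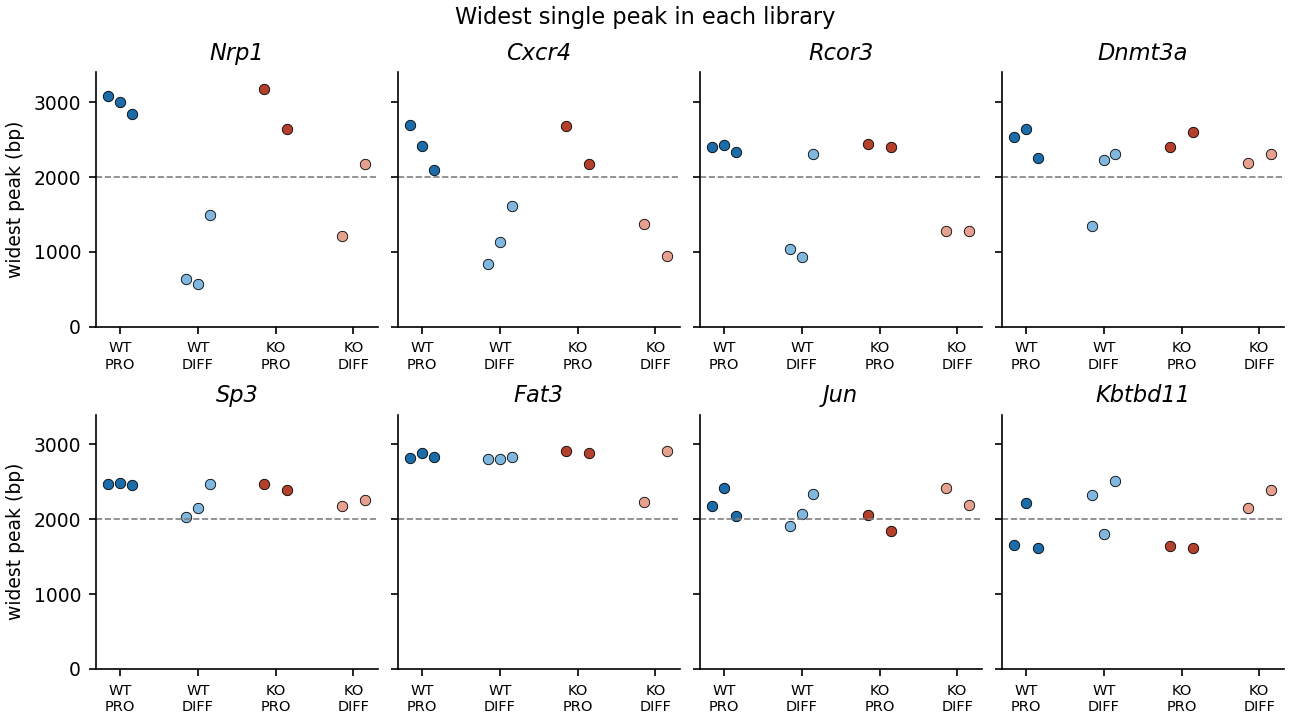
Width of the widest peak (y axis, bp) at 8 promoters, 1 panel each, by group (x axis, KO standing for p27KO). Each point is a library, WT in blue and p27KO in red, with PRO dark and DIFF light, and the dashed line is the 2000 bp limit. At Nrp1 the PRO points lie between 2639 and 3171 bp and the DIFF points between 567 and 2177 bp, while at Fat3 all points lie between 2237 and 2911 bp.

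The guidance, adhesion and junction group had the lowest median ratio of the 5 role groups, 0.863, with 7 of its 8 regions narrower. For transcription factors it was 0.964 (8 of 13 narrower), for chromatin regulators 0.953 (7 of 9), for RNA processing 0.951 (4 of 6) and for signalling 0.985 (2 of 4). These groups were made after the widths were known, and the differences between them carry no test. Within the transcription factors Jun showed no separation, at 2178, 2424 and 2038 bp in WT PRO, 1916, 2064 and 2334 bp in WT DIFF, 2053 and 1843 bp in p27KO PRO and 2418 and 2186 bp in p27KO DIFF. Sp3, with 2477, 2489 and 2459 bp in WT PRO, 2032, 2147 and 2475 bp in WT DIFF, 2475 and 2392 bp in p27KO PRO and 2181 and 2259 bp in p27KO DIFF, was narrower at DIFF in all but WT DIFF replicate 3.

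Dnmt3a had a similar pattern with the WT groups overlapping. Its widths were 2537, 2643 and 2248 bp in WT PRO, 1348, 2224 and 2314 bp in WT DIFF, 2406 and 2595 bp in p27KO PRO and 2188 and 2303 bp in p27KO DIFF. Gja1, the astrocytic gap junction protein connexin 43, measured 2010, 2079 and 2022 bp in WT PRO, 1271, 1343 and 2065 bp in WT DIFF, 2052 and 2109 bp in p27KO PRO and 1967 and 1671 bp in p27KO DIFF. At both genes the shortest width came from WT DIFF replicate 1, and WT DIFF replicate 3 lay within the PRO range.

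The other 32 regions were not narrower at DIFF. The largest ratio, 1.56, was at the chromosome 8 repeat chr8:20660703-20666688, with 1274, 2383 and 2544 bp in WT PRO, 5959, 5124 and 3393 bp in WT DIFF, 2653 and 3588 bp in p27KO PRO and 4262 and 2298 bp in p27KO DIFF. By the widest peak the WT groups did not overlap and the p27KO groups did. Summed over all peaks of this repeat, WT PRO had 3161, 4554 and 4765 bp and WT DIFF 5959, 5124 and 4734 bp. By that sum the WT groups overlapped. A neighbouring repeat (chr8:20700529-20706872) followed at 1.51. Among single-copy regions an intronic region of Ccdc88c (chr12:100956909-100959342) had the largest ratio, 1.35. The promoter of Kbtbd11, a Kelch and BTB domain gene, measured 1656, 2221 and 1617 bp in WT PRO, 2322, 1800 and 2512 bp in WT DIFF, 1642 and 1611 bp in p27KO PRO and 2146 and 2385 bp in p27KO DIFF, so that it was wider at DIFF in p27KO without overlap and overlapped in WT.

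Rank within a list is a measure the width rule did not use. Each region was ranked in each list by the fold enrichment of its highest peak, which is the pileup at the summit over the local background, and 100 stands for the highest. Median percentiles of the single-copy regions were 60.9, 60.7 and 65.6 in WT PRO, 72.8, 75.6 and 64.8 in WT DIFF, 63.1 and 64.7 in p27KO PRO and 72.6 and 71.2 in p27KO DIFF. They were thus of middling height. The other 13580 autosomal regions with a coding start site had medians of 77.5 to 82.5, above the wide regions in each of the 10 lists.

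For the repeated regions the median percentiles were 45.2, 48.9 and 55.4 in WT PRO, 65.3, 67.1 and 49.3 in WT DIFF, 50.0 and 56.4 in p27KO PRO and 60.3 and 52.6 in p27KO DIFF. The groups overlapped in both genotypes. Ranked by the -log10 p-value instead, which grows with the number of reads at the summit, the single-copy regions had medians of 86.2 to 90.4.

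**Figure D4:**
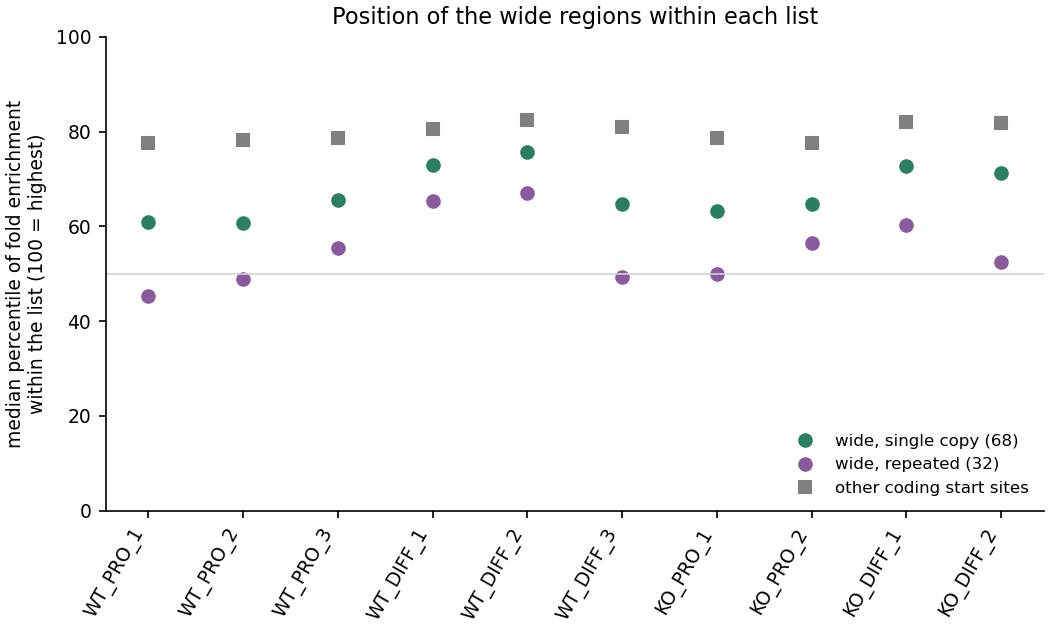
Median within-list percentile of fold enrichment (y axis, 100 is the highest) in each library (x axis, KO standing for p27KO), for single-copy wide regions (green), repeated wide regions (purple) and the other regions with a coding start site (grey squares). The thin line marks 50. Single-copy medians lie between 60.7 and 75.6, and both kinds of wide region lie below the grey squares in all 10 libraries.

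The change in rank was tested with limma on normal scores of the ranks, over all 70627 regions with a peak in 5 or more lists and with Benjamini-Hochberg adjustment over all of them. A change of 1 is 1 SD of the normal scores. In WT, 13568 regions (19.2%) passed an adjusted p of 0.05, with 9.15% higher and 10.1% lower at DIFF. Among the wide regions 6 of 100 passed, 5 higher and 1 lower, which is fewer than the background share. Of the 62 single-copy regions at a coding start site 1 passed, against 4.99% of the other start-site regions. Restricted to the regions with a peak in all 10 lists, where 12.9% of 37862 passed, 5 of the 100 did.

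The signs were less even than the calls. In WT 92 of 100 estimates were above 0, against 52.8% of all regions tested and 66.4% of the other start-site regions. The median was 0.30, against 0.03 and 0.12. Median fold enrichment of the 100 regions was 7.09, 7.32 and 7.27 in WT PRO and 6.95, 6.88 and 7.51 in WT DIFF. These values overlapped, so the rise was in rank within the list and was not seen in fold enrichment itself. Single-copy regions had a median of 0.28 (63 of 68 above 0) and repeated regions 0.35 (29 of 32). By the role groups the WT median was 0.33 for transcription factors, 0.28 for chromatin regulators, 0.33 for RNA processing, 0.30 for signalling and 0.17 for guidance, adhesion and junction. Ranked by the -log10 p-value, 73 of 100 were above 0 with a median of 0.10. Leaving out WT DIFF replicate 3 raised the number of wide regions called from 6 to 13, where 10297 of the 66241 regions tested passed. Leaving out WT DIFF replicate 1 lowered the number of wide regions called to 0, where 8349 of 68472 passed.

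**Figure D5:**
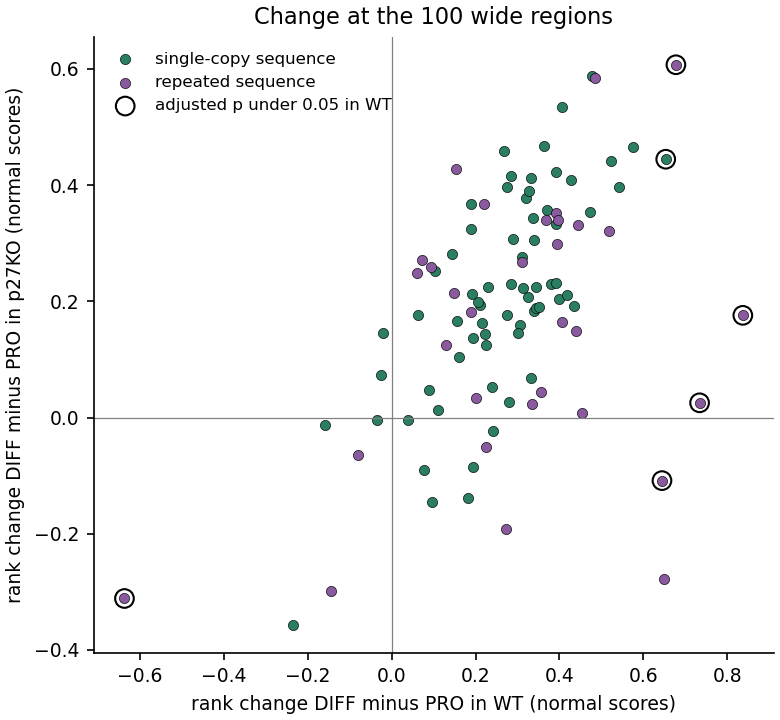
Change in the normal score of the rank, DIFF minus PRO, in WT (x axis) and in p27KO (y axis) for the 100 wide regions, with single-copy regions in green and repeated regions in purple. Thin lines mark 0, and open circles the 6 regions with an adjusted p under 0.05 in WT. The 2 axes share no library, and 92 regions lie above 0 in WT and 84 in p27KO.

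Alyref2, an adaptor of mRNA export, was the single-copy region that passed. Its region at chr1:171501565-171504343 stood at percentiles 51.0, 54.8 and 51.8 in WT PRO, 80.4, 76.4 and 71.7 in WT DIFF, 67.2 and 54.2 in p27KO PRO and 76.1 and 76.7 in p27KO DIFF. PRO and DIFF did not overlap in either genotype. The WT change was 0.65 ± 0.17 (SE), with an adjusted p of 0.0220 by limma, and the p27KO change of 0.44 did not pass. Ranked by the -log10 p-value the WT change was 0.17 and no longer passed.

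The other 4 regions that rose were repeats. The largest rise, 0.84 ± 0.21 (SE, adjusted p = 0.0170 by limma), was at chr5:22444564-22448149, where the percentiles were 27, 19.8 and 42.1 in WT PRO, 70.3, 55.7 and 56.9 in WT DIFF, 44.1 and 53.5 in p27KO PRO and 55.7 and 55.9 in p27KO DIFF. At chr18:13296577-13299695 they were 36.2, 49.1 and 40.4 in WT PRO and 80.5, 70.3 and 57.6 in WT DIFF, a change of 0.73 ± 0.20 (adjusted p = 0.0265). The WT groups did not overlap at either.

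At chr12:59035008-59039004, 5730 bp from the start of Trappc6b, the percentiles were 36.1, 39.0 and 46.6 in WT PRO and 67.1, 71.4 and 62 in WT DIFF, a change of 0.68 ± 0.20 (limma, adjusted p = 0.0339). At chr1:16070644-16074753, in an intron of 4930444P10Rik, they were 30.7, 34.7 and 52.0 against 63.1, 71.7 and 57.1, a change of 0.64 ± 0.20 (adjusted p = 0.0469). The region that fell was the 4-base repeat shown above, chr9:121929528-121931926, at 69.1, 76.4 and 84.4 in WT PRO and 53.4, 60.9 and 48.2 in WT DIFF, a change of -0.64 ± 0.19 (adjusted p = 0.0372). In all 3 regions the WT PRO and WT DIFF values did not overlap. Each of the 6 calls was lost under some of the 19 alternatives run, the chromosome 5 repeat under 3 and the chromosome 1 repeat under 12.

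Nrp1 and Cxcr4, whose widest peak narrowed most, showed no change in rank that passed. Nrp1 stood at percentiles 53.2, 50.9 and 62.8 in WT PRO, 45.7, 59.4 and 34.2 in WT DIFF, 59.5 and 64.1 in p27KO PRO and 54.7 and 40.8 in p27KO DIFF. Its WT change was -0.23 ± 0.21 (limma, adjusted p = 0.480) and its p27KO change -0.36 ± 0.25 (adjusted p = 0.426). Cxcr4 changed by 0.08 ± 0.18 (adjusted p = 0.811) in WT and by -0.09 ± 0.22 (adjusted p = 0.848) in p27KO. By the -log10 p-value the WT change at Nrp1 was -0.58 and passed, while the sign at Cxcr4 turned to -0.01.

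In p27KO 8695 regions (12.3%) passed by limma, but 0 of the 100 wide regions did. Restricted to the regions with a peak in all 10 lists, where 2398 of 37862 passed, 0 of the 100 did. An unadjusted p under 0.05 was found at 4 of the wide regions, against 18169 of the 70627 tested. Estimates were above 0 in 84 of 100, against 53.4% of all regions and 68.4% of the other start-site regions. The median was 0.21, against 0.04 and 0.14. Median fold enrichment of the 100 regions was 7.79 and 7.84 in p27KO PRO and 7.51 and 8.42 in p27KO DIFF, which overlapped. Ranked by the -log10 p-value, 61 of 100 were above 0 with a median of 0.07. Without p27KO DIFF replicate 1 the median by fold enrichment was 0.13 (72 of 100 above 0), and without p27KO DIFF replicate 2 it was 0.31 (90 of 100). At the 6 regions called in WT the p27KO changes were 0.18 (chromosome 5), 0.03 (chromosome 18), 0.61 (chromosome 12), 0.44 (Alyref2), -0.11 (chromosome 1) and -0.31 (chromosome 9). The interaction, which tests whether the change differed between genotypes, called 0 regions (0%) by limma. An unadjusted p under 0.05 was found at 2 wide regions, the repeats on chromosomes 1 and 18, against 2760 of the 70627 tested.

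Between genotypes the wide regions showed no call. At DIFF limma called 11 regions (0.0156%), of which 0 were wide. An unadjusted p under 0.05 was found at 0 of the wide regions, against 3466 of the 70627 tested. At PRO it called 24 (0.034%), again 0 of them wide. Here 5 wide regions had an unadjusted p under 0.05, all of them repeated, against 3906 of the 70627 tested. The median change of the wide regions, p27KO minus WT, was 0.00 at DIFF and 0.08 at PRO. At DIFF 45 of 68 single-copy estimates were above 0 (median 0.03), while 5 of 32 repeated ones were (median -0.10). Single libraries moved these medians. At DIFF the median over all 100 ran from -0.12 without WT DIFF replicate 3 to 0.09 without p27KO DIFF replicate 2, and at PRO from 0.03 without p27KO PRO replicate 2 to 0.14 without WT PRO replicate 3.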

How the data were processed

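ATAC-seq peak lists of 10 libraries in 4 groups were used, grouped by title and genotype in the labels. The authors removed adapters (Cutadapt), trimmed by quality (Trimmomatic), aligned to GRCm38 with Bowtie2, flagged duplicates (Picard) and used MACS2 in its narrow mode, with no model and an FDR of 0.05, to make 1 list per library. Versions, read shift and extension are not given in the sources used here. Tn5 offset and extension set where a peak ends, so widths depend on them. The deposited columns are peak positions, the fold enrichment (a ratio to local background), the -log10 p-value, the -log10 q-value and an integer score, the last of which was not used. Reads were not used here, so the study's DiffBind test could not be run, and no depth or counting interval can be given for a peak.

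Peaks were merged over all lists. A region without a peak in a list was ranked last there. Ranks were converted to normal scores and fitted in limma 3.58.1 (R 4.3.3) with 1 mean per group over all 10 libraries. Start sites were taken from GENCODE M21 and sequence features from GRCm38, with promoters from RefSeq. The procedure was tested on simulated data for WT DIFF minus PRO on 70627 regions: with 14000 regions changed, 13% of shifts of 0.5 and 61.3% of shifts of 1 were recovered, and 4.76% of the calls were unchanged regions. With 200 regions changed, 22% of shifts of 1 and 66% of shifts of 2 were recovered, and 9.28% of the calls were unchanged regions. Named regions were the 12 widest, those past the threshold, those in the gene lists, the 3 largest and 3 smallest width ratios, and those at the edges of the rule, skipping those without a symbol where one was needed. Dnmt3a, Sp3, Fat3, Ppp2r3d, Rcor3, Mir17hg and the members of the role groups were named after their values were seen. The members and lists were chosen with earlier results of these data known. Some items are not reported here.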

Additional observations from a re-analysis of the deposited data

Results flagged for a closer look

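Outside the autosomes, which the comparisons above did not use, 8 regions met the same width rule. They were 2 stretches of the mitochondrial genome with median widths of 6660 and 4806.5 bp, 1 stretch of an unplaced contig with 7971 bp, 4 regions of chromosome X, among them the promoter of Sox3 with 2119 bp, and 1 region of chromosome Y with 2649.5 bp. There are no control libraries for these. With 2 or 3 libraries in a group, no search for single outlying libraries was made.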

How the results depend on the processing

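The number of wide regions was 833 at a minimum of 1500 bp and 23 at 2500 bp, 168 when 3 lists sufficed, 45 for 8 lists and 25 for all 10, 165 by summed width, and 85 to 96 leaving out a library. The share with a coding start site was 83.4%, 26.1%, 51.1% and 48.0% at 1500 bp, 2500 bp, 8 lists and all 10 lists, and 60 to 66% leaving out a library. Mean widths over the 100 regions were 2350 bp (WT PRO), 2387 bp (WT DIFF), 2586 bp (p27KO PRO) and 2275 bp (p27KO DIFF). By this mean WT DIFF lay above WT PRO, while by the median it lay below (2113 against 2212 bp). The means include chr9:3011434-3038257, with 26785 bp in WT DIFF replicate 1 against 4230 to 7064 bp in WT PRO. That region measured 26789 bp in p27KO PRO replicate 2, so it weighs heavily on the WT DIFF and p27KO PRO means. Means without it were not computed. Median summed widths were 2284.5 bp (WT PRO), 2156 bp (WT DIFF), 2269 bp (p27KO PRO) and 2150 bp (p27KO DIFF).

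In WT 2 wide regions were called with regions in 2 or more lists (13704 of 99231 over all regions). With only the groups compared it was 3 (12344 of 70627). Leaving out a library gave 0 to 13. It was 0 without WT DIFF replicate 1 (8349 of 68472) and 1 without WT PRO replicate 1 (8428 of 65643). It was also 1 without WT PRO replicate 2 (8187 of 65594) or WT DIFF replicate 2 (8973 of 68821). It was 2 without WT PRO replicate 3 (8407 of 65976) and 13 without WT DIFF replicate 3 (10297 of 66241). In p27KO 1 of 97 was called when merging needed an overlap of 100 bp (8211 of 65471 over all regions). The causes were not tested. The interaction and both genotype contrasts called 0 wide regions by limma under every alternative run. The sign at Cxcr4 turned to -0.0063 in WT by the -log10 p-value and to -0.0115 without WT DIFF replicate 2 (-0.0115 to 0.163 leaving out a library), and to 0.10 in p27KO without p27KO PRO replicate 2 (-0.309 to 0.10 leaving out a library).

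Whether replicate numbers pair the libraries was not settled. Same-numbered WT libraries correlated at 0.0575, 0.0647 and 0.0328 in their deviations, each highest with its own number. Differently numbered WT libraries correlated at -0.0508 to -0.00477. Same-numbered p27KO libraries correlated at -0.141 and differently numbered ones at 0.141. With 2 libraries per group these have the same size by construction, so they cannot decide. With the replicate block 1 wide region was called in WT, against 6 without it, and 12193 of all 70627 regions passed. In the other contrasts the block changed no count of wide regions called. A crossed pairing of the p27KO libraries, chosen after seeing the data, called 8652 regions, 0 of them wide.

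Depth limits could not be set, since no reads were used.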
